A study of Capra hircus with 40 samples.

Results

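Oxytocin (OXT, gene 108637398) and the oxytocin receptor (OXTR, gene 102185124) were followed through whole ovary and whole uterus of the Jining gray goat, a Chinese breed. Both were taken by gene symbol and number from the deposited table of read counts, which makes 2 of the 30049 genes listed. Oxytocin is a short peptide hormone, cut from a precursor that also yields its carrier neurophysin, and it acts through a G protein-coupled receptor that releases calcium inside the cell. In ruminants the hormone comes from the hypothalamus and also from the large cells of the corpus luteum, the steroid-making body that an ovulated follicle leaves behind. Its receptor in the uterine lining drives release of prostaglandin F2 alpha, which ends the life of the corpus luteum, and its receptor in uterine muscle drives contraction at birth.

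Ovary and uterus were each sampled at 4 ages: at day 1 after birth and at months 2, 4 and 6. Each organ and age held 5 libraries, 40 in all, from female goats of a single farm kept alike, with no treatment named. The labels give each library an individual number but do not say whether same-numbered ovary and uterus came from the same goat. Each library is treated here as a separate animal. The labels give neither estrous stage nor pregnancy. Libraries are named here by organ, age and individual. Levels are CPM, counts scaled so that all 40 libraries compare, and since the files hold no gene length, levels are compared between libraries of a gene and not between genes. Counts of OXT and its paralog AVP are given side by side as counts.

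Library totals ran from 31.9 to 62.7 M counts. Several libraries stood apart in genes that mark a tissue, and many of the values that rest on them are given with and without them. Ovary month 4 individual 5 was rich in corpus luteum genes. Ovary day 1 individual 3 held 1835 CPM of ADIPOQ, a fat cell hormone, and only 0.0812 CPM of FSHR, through which granulosa cells sense follicle-stimulating hormone. Uterus month 4 individual 5 held 11274 CPM of ELN, which encodes elastin, and had the lowest level of every uterine epithelium marker, 10 of 10. Uterus day 1 individuals 3 and 5 were high in ciliated epithelium genes. Whether the dissection or the label of these libraries holds was not tested, and they are called by their labels. In whole-organ RNA, fewer cells of a type and less RNA per cell cannot be told apart.

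OXTR was abundant in most uteri and varied widely among animals of the same age. At day 1 the uteri of individuals 1 to 5 had 137, 49.9, 4.58, 21.6 and 0.0878 CPM of OXTR, the last from 4 counts (exact Poisson 95% interval 0.0239 to 0.225 CPM). At month 2 they had 88.3, 37.2, 41.7, 269.7 and 141.8 CPM. At month 4 they had 482 (individual 1), 131, 232, 217 and 0.759 CPM. The uteri of month 6 had 195, 785, 138, 405 and 267 CPM. At day 1 the highest uterus thus stood 1562-fold above the lowest, and at month 4 one animal of 5 was far below the other 4. Every uterus of month 6 was above every uterus of day 1, although the lowest of month 6 (137.8 CPM) and the highest of day 1 (137.3 CPM) nearly met.

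**Figure D1:**
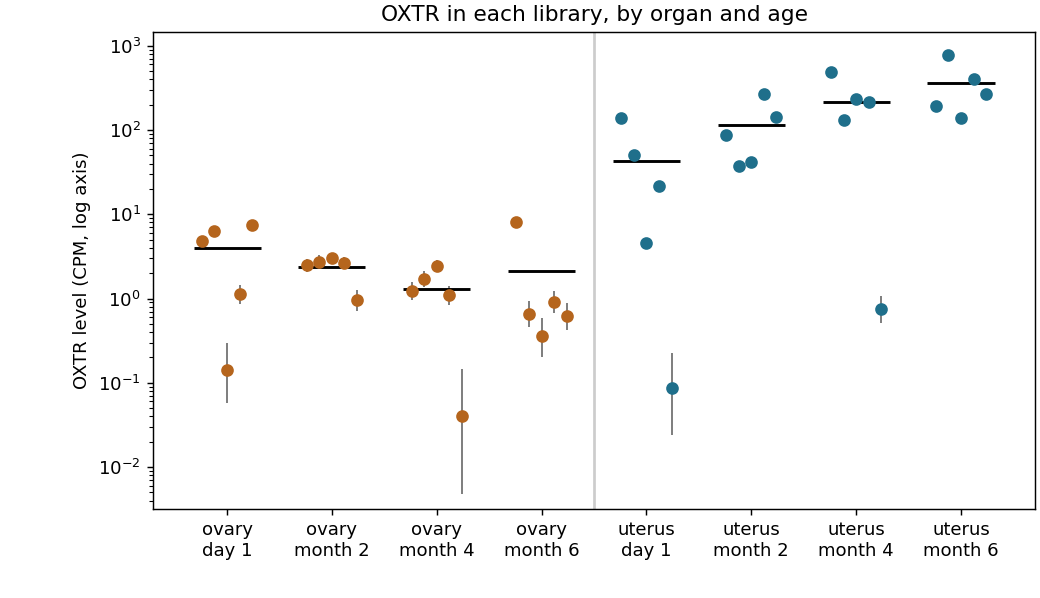
OXTR level (CPM, log axis) in each of the 40 libraries, by organ and age. Each point is 1 library with individuals 1 to 5 from left to right, vertical grey lines are exact 95% Poisson counting intervals, and black lines are group means. Uterus libraries lie mostly between 21.6 and 785 CPM, apart from 3 low ones, and ovary libraries lie at or below 8.17 CPM.

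The uterine mean of OXTR was 42.7 ± 56.4 CPM at day 1, 116 ± 95.9 at month 2, 212 ± 176 at month 4 and 358 ± 259 at month 6 (SD, n = 5 each). The medians followed the same order, at 21.6, 88.3, 217 and 267 CPM. No step passed the test in edgeR, where a call needed both an adjusted p below 0.05 and a log2 fold change of 1 or more in size. Between month 6 and day 1 the log2 fold change was 3.05 ± 1.22 SE, with an unadjusted p = 0.0217 and an adjusted p = 0.204, while 1.42% of all 18789 genes tested were called, 0.66% higher and 0.756% lower. Without day 1 individual 5 and month 4 individual 5 it was 2.72 ± 0.84, with an adjusted p = 0.0859, and over all alternatives it lay between 2.54 and 4.83, with adjusted p from 0.076 to 0.375. The gap thus kept its direction in each fit, with month 6 higher, and was called in none of the 18.

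No single step between ages was called. The log2 fold change was 1.43 ± 1.15 between months 2 and day 1 (edgeR, adjusted p = 0.644), where 0.016% of genes were called. It was 0.89 ± 1.14 between months 4 and 2 (adjusted p = 0.964) and 0.73 ± 1.14 between months 6 and 4 (adjusted p = 0.818). In both later steps 0% of genes were called in edgeR, with 1244 and 2028 genes at an unadjusted p under 0.05. DESeq2 called 24 genes at the step to month 4 and 56 at the step to month 6, and limma-voom called 0 at each.

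The uteri low in OXTR differed from the rest in genes of several cell types. The ciliated and oviduct epithelium list, of 7 measured genes such as FOXJ1, the master regulator of motile cilia, summed to 707 CPM in day 1 individual 3 and 913 CPM in day 1 individual 5. Month 6 individual 3 had a sum of 344 CPM. Its OXTR level of 137.8 CPM was the lowest of month 6 and near the median of the 20 uteri, 137.5 CPM. The other 17 uteri had sums between 8.37 and 132 CPM. FOXJ1 itself was at 119 and 87.3 CPM in the day 1 pair, and no gene of the list was at 0 in either.

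The same pair had the highest sums of the uterine epithelium list, at 2474 and 2008 CPM, and low sums of the contraction-associated myometrium list, at 1628 and 1486 CPM. HOXA13, a patterning gene of the lower reproductive tract, was at 124 and 140 CPM in them, against 26.6, 4.05 and 0.618 CPM in the other 3 uteri of day 1. Month 2 individual 1 also had 108 CPM of HOXA13 and a myometrium sum of 1550 CPM, with OXTR at 88.3 CPM. The levels of HOXA13 and of the muscle genes therefore did not sort the low uteri from all others, and the part of these markers in the OXTR level was not tested.

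Uterus month 4 individual 5 was low in OXTR with another set of markers. Its sum of the ciliated and oviduct epithelium list was the lowest of the 20 uteri at 8.37 CPM, with 1 gene of 7 at 0. Its uterine identity sum was 61.7 CPM, against 263 to 557 CPM in the other 19, and inside the range of the 20 ovaries, 18.6 to 109 CPM. HOXA10, which patterns the uterus, was at 3.13 CPM in it. Its contraction-associated myometrium sum was the highest, at 12423 CPM, with MYH11, the smooth muscle myosin, at 3412 CPM. Receptors for estrogen and progesterone were low there too, with ESR1 at 94.2 CPM and PGR at 66.2 CPM. Genes of the interferon response summed to 2819 CPM, the highest of the 20 uteri. A low OXTR level in the library labelled uterus month 4 individual 5 thus came with few epithelial, uterine identity and hormone receptor transcripts and many of smooth muscle and elastic tissue, and their part was not tested.

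**Figure D2:**
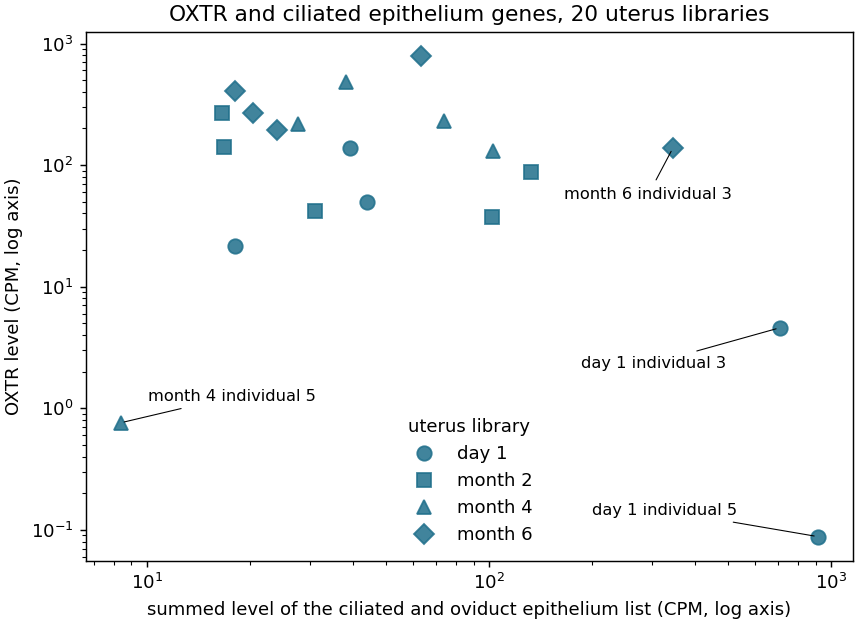
OXTR level (CPM, log axis) against the summed level of 7 ciliated and oviduct epithelium genes (CPM, log axis) in the 20 uterus libraries, with symbols for age. Day 1 individuals 3 and 5 lie at the lower right, month 4 individual 5 at the lower left, and month 6 individual 3 has a high sum with 138 CPM of OXTR.

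The ovary held little OXTR at any age. The ovaries of individuals 1 to 5 had 4.75, 6.27, 0.142, 1.13 and 7.43 CPM at day 1. They had 2.48, 2.74, 3.02, 2.66 and 0.954 CPM at month 2. At month 4 they had 1.24, 1.73, 2.45, 1.10 and 0.0399 CPM, the last, from 2 counts, in the library rich in luteal genes. At month 6 they had 8.17, 0.663, 0.358, 0.921 and 0.623 CPM. One ovary of day 1 and one of month 4 were far below their groups, and 1 ovary of month 6 was far above its own.

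The ovarian mean of OXTR was 3.94 ± 3.18 CPM at day 1, 2.37 ± 0.815 at month 2, 1.31 ± 0.885 at month 4 and 2.15 ± 3.37 at month 6 (SD, n = 5 each). Without month 4 individual 5 the month 4 mean was 1.63 ± 0.611 CPM (n = 4), and without day 1 individual 3, the library with fat genes, the day 1 mean was 4.89 ± 2.74 (n = 4). Over the 20 ovaries the median was 1.48 CPM, and without month 4 individual 5 it was 1.73 CPM over 19. The groups of every step overlapped. The log2 fold change was -0.72 ± 0.96 between month 2 and day 1 (edgeR, adjusted p = 0.88; 0.00508% of 19671 genes called) and -0.84 ± 0.96 between month 6 and day 1 (adjusted p = 0.752; 0.0763% called). Without month 6 individual 1 the change between month 6 and day 1 was -2.58 (adjusted p = 0.268), the lowest value with 1 library left out.

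Between months 4 and 2 the OXTR change in the ovary was -0.83 ± 0.96 (edgeR, adjusted p = 0.789) with all libraries and -0.52 without month 4 individual 5 (adjusted p = 0.943). Between months 6 and 4 it was 0.70 ± 0.96 (adjusted p = 1), and it turned to -1.04 without month 6 individual 1. At these steps 0% of genes were called in edgeR, and 1751 and 520 genes had an unadjusted p below 0.05. DESeq2 called 24 and 4 there, and limma-voom called 0 at each. Month 6 individual 1, with the highest ovarian OXTR, also had the highest ovarian sum of the uterine epithelium list, 1876 CPM, and 978 CPM of the ciliated and oviduct epithelium list. Month 4 individual 4 had a ciliated sum of 1638 CPM with 1.10 CPM of OXTR, and the part of epithelial genes in the ovarian level was not tested.

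OXTR was lower in the ovary than in the uterus at all 4 ages. The log2 fold change of ovary over uterus was -3.43 ± 1.16 at day 1 (edgeR fit of all 40 libraries, adjusted p = 0.035), where 14.2% of 20518 genes were called, 10.3% higher and 3.94% lower in the ovary. It was -5.62 ± 1.29 at month 2 (adjusted p = 0.00202; 16.3% called, 9.79% higher and 6.5% lower), -7.40 ± 1.40 at month 4 (adjusted p = 0.00064; 11.1% called, 6.92% higher and 4.22% lower) and -7.39 ± 1.39 at month 6 (adjusted p = 0.000475; 10.1% called, 6.05% higher and 4.06% lower). At months 2 and 6 every ovary was below every uterus. At month 6 the ovary averaged 2.15 CPM and the uterus 358 CPM, with medians of 0.663 CPM in the ovary and 267 CPM in the uterus. The ovarian mean was carried by month 6 individual 1 at 8.17 CPM, and without it the log2 fold change was -9.12 (edgeR, adjusted p = 0.000239). Across ages, 17 of the 20 uteri were above the highest ovary, and the other 3 were day 1 individuals 3 and 5 and month 4 individual 5.

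The differences at months 2 and 6 were called in each of 21 alternatives. The month 4 one was called in 20 of 21, and limma-voom gave it an adjusted p = 0.092. Without uterus month 4 individual 5 it was -7.70 (edgeR, adjusted p = 0.000188). The day 1 difference was called in 11 of 21. It was lost without ovary day 1 individuals 1, 2, 3 or 4 (log2 fold change from -3.71 to -3.12, adjusted p from 0.0511 to 0.0833) and without uterus day 1 individual 2 (-3.36, adjusted p = 0.0534). Without uterus day 1 individual 1, the animal with the highest level of that age, it was -2.28 (adjusted p = 0.177). It was also lost with individual numbers as a block (-3.32, adjusted p = 0.0748), with limma-voom (-2.21, adjusted p = 0.538) and with only the groups compared (-3.43, adjusted p = 0.177). It was kept without uterus day 1 individual 5, at -3.75 (adjusted p = 0.0157). The organs did not differ past the test in how OXTR changed from day 1 to month 6, with a difference in log2 fold change (ovary minus uterus) of -3.96 ± 1.55 (unadjusted p = 0.0154, adjusted p = 0.303; 0.234% of genes called).

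**Figure D3:**
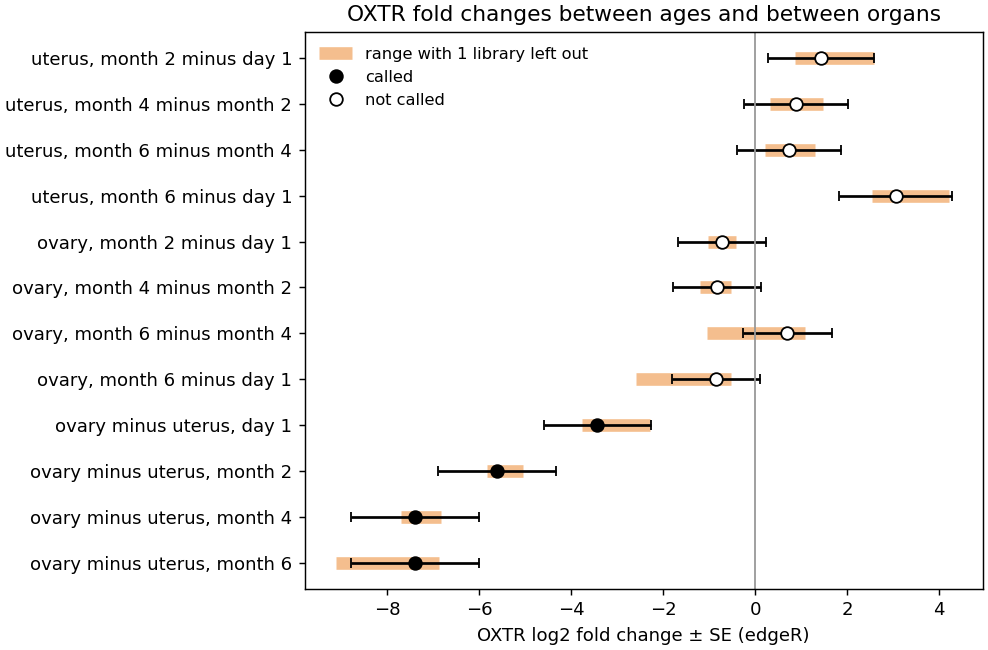
OXTR log2 fold change between ages in each organ and between organs at each age (edgeR, point ± SE). Filled points are called, open ones are not, and orange bars span the values with 1 library left out. The 4 organ differences lie between -7.40 and -3.43 and are filled, and the 8 age steps are open.

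Ranked by the mean of log2(CPM + 0.05), OXTR stood in the order uterus month 6, uterus month 2, uterus month 4, uterus day 1, ovary month 2, ovary day 1, ovary month 6 and ovary month 4. The gap between the first pair of neighbours was 1.75 on this log2 scale, above the larger of their SDs, 1.20. All other neighbours were closer than their spread, and the ranges of all neighbours overlapped. By this log mean the uterus of month 4 stood below that of month 2, although its arithmetic mean was higher. Without uterus month 4 individual 5 the log mean of month 4 was 7.89, against 6.46 at month 2 and 8.21 at month 6. Month 4 then stood between them, closer to month 6 than the larger SD of that pair, 0.97. Its gap to month 2 was above the larger SD there, 1.20. The gap below month 6 thus depended on that library. Without ovary month 4 individual 5 the last pair changed places.

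OXTR was among the most variable genes between animals of 1 group. Its SD within groups was 2.81 in the uterus (log2 CPM, prior count 2), against a median of 0.51 over all genes, and 99.4% of 18789 genes varied less. Without day 1 individual 5 and month 4 individual 5 it was 1.32, above 90.9% of genes. In the ovary it was 1.77, above 91.9% of 19671 genes, and 1.15, above 83.9%, without month 4 individual 5 and day 1 individual 3.

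OXT was at the edge of detection in nearly every library and very high in a single ovary. At day 1 the ovaries of individuals 1 to 5 had 14, 23, 8, 7 and 2 counts of OXT, or 0.262, 0.410, 0.162, 0.132 and 0.0350 CPM. At month 2 they had 4, 18, 6, 4 and 9 counts, or 0.0757, 0.363, 0.107, 0.0776 and 0.175 CPM. Month 4 ovaries had 16, 282, 0, 35 and 89477 counts. These are 0.287, 5.73, 0, 0.651 and 1786 CPM, and the count of 0 allows up to 0.054 CPM, a limit that covers counting error only. At month 6 they had 18, 22, 9, 4 and 29 counts, or 0.301, 0.442, 0.201, 0.0857 and 0.602 CPM.

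The 89477 counts of month 4 individual 5 were 99.3% of the 90074 OXT counts in the whole series. They made OXT 0.155% of that library, at 1786 CPM (exact Poisson 95% interval 1775 to 1798). The level was 311.8-fold that of the next library, ovary month 4 individual 2, and 8875-fold the median of the other 19 ovaries. Those 19 held 510 OXT counts together, 282 of them in individual 2 of month 4. The mean of month 4 was 359 ± 798 CPM with all libraries (SD, n = 5) and 1.67 ± 2.72 CPM without individual 5 (n = 4). Against these stood 0.200 ± 0.142 CPM at day 1, 0.160 ± 0.120 at month 2 and 0.326 ± 0.202 at month 6 (n = 5 each).

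**Figure D4:**
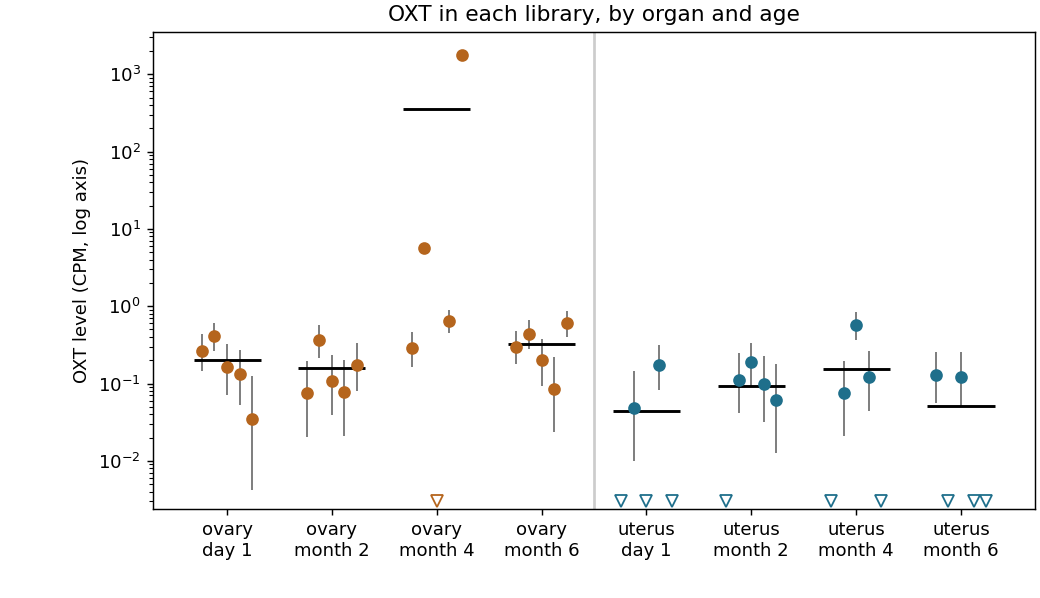
OXT level (CPM, log axis) in each of the 40 libraries, by organ and age. Each point is 1 library with individuals 1 to 5 from left to right, vertical grey lines are exact 95% Poisson counting intervals, black lines are group means, and open triangles at the base are libraries with 0 counts. Ovary month 4 individual 5 stands at 1786 CPM, individual 2 of that group at 5.73 CPM, and the other 38 libraries at or below 0.651 CPM.

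The ovary with OXT was also the ovary with corpus luteum genes. The corpus luteum list, of 11 measured genes, summed to 29259 CPM in month 4 individual 5, against 112 to 595 CPM in the other 19 ovaries, and 9 of the 11 were highest there. CYP11A1, the side-chain cleavage enzyme that starts steroid synthesis (LOC102173131 in the gene table), was at 13376 CPM, against at most 229 CPM in the others. STAR, the cholesterol carrier of the same step, was at 2930 CPM, against at most 57.1 CPM.

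Receptors that tie the corpus luteum to its hormones were high in the same animal. PTGFR, the receptor for prostaglandin F2 alpha, was at 9931 CPM, against at most 410 CPM in the other 19 ovaries. LHCGR, the luteinizing hormone receptor, was at 329 CPM, against at most 38.3 CPM, and PRLR, the prolactin receptor, at 958 CPM, against at most 75.4 CPM. OXTR in this library was the lowest of the 20 ovaries, at 0.0399 CPM, so the ligand and its receptor lay at opposite ends in 1 ovary. Genes of the interferon response summed to 5908 CPM, and 8 of 8 were highest there.

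Ovary month 4 individual 2, with 282 OXT counts, did not share the luteal profile. Its corpus luteum sum was 334 CPM, inside the range of the other ovaries, and STAR was at 4.31 CPM. Its granulosa sum was 132 CPM, against 354 CPM in individual 5 of the same age, and 764, 405 and 1875 CPM in individuals 1, 3 and 4. The luteal list thus did not mark the ovary second in OXT.

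**Figure D5:**
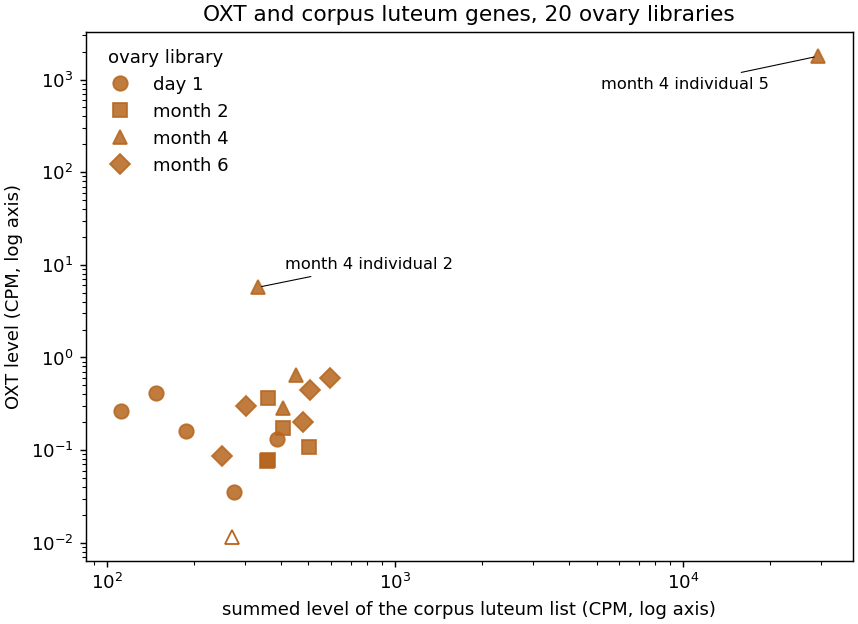
OXT level (CPM, log axis) against the summed level of 11 corpus luteum genes (CPM, log axis) in the 20 ovary libraries, with symbols for age; the open symbol is a library with 0 OXT counts. Month 4 individual 5 lies alone at the upper right, and month 4 individual 2 has 5.73 CPM of OXT with a luteal sum of 334 CPM.

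AVP, which encodes vasopressin, is the paralog of OXT and shares a nearly identical neurophysin exon with it, so reads can be split between the pair in a way the sources used here do not describe. AVP had 225 counts in ovary month 4 individual 5, or 4.49 CPM, which is 0.251% of its OXT count. In the other ovaries AVP had 15, 12, 0, 2 and 12 counts at day 1 and 29, 11, 9, 3 and 10 at month 2. It had 12, 5, 5 and 0 counts in individuals 1 to 4 of month 4 and 2, 2, 5, 7 and 7 at month 6. Outside the OXT-rich ovary both genes mostly rest on few counts. Its receptor AVPR1A was at 40.9 CPM in the OXT-rich ovary and at 22.5 CPM in day 1 individual 3, against at most 2.77 CPM in the other 18.

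Uterine OXT was near 0 throughout. Individuals 1 to 5 had 0, 3, 0, 10 and 0 counts at day 1 and 0, 6, 11, 5 and 3 at month 2. They had 0, 4, 24, 6 and 0 counts at month 4 and 8, 0, 7, 0 and 0 at month 6. The 20 uteri held 87 OXT counts together, or 0.0854 CPM pooled (exact Poisson 95% interval 0.0684 to 0.105), and 9 of 20 had none. That pooled interval covers counting error only and not the spread between animals. The highest, month 4 individual 3, was at 0.573 CPM. AVP in the uterus had 5, 12, 2, 7 and 18 counts at day 1 and 21, 10, 16, 46 and 0 at month 2. It had 0, 10, 13, 8 and 0 counts at month 4 and 8, 0, 3, 31 and 42 at month 6.

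No age step of OXT passed in the ovary. Between months 4 and 2 the log2 fold change was 11.12 ± 2.41 (edgeR, unadjusted p = 0.000196, adjusted p = 0.549), and without month 4 individual 5 it was 3.43. Between months 6 and 4 it was -10.08 ± 2.30 (adjusted p = 1), and -2.39 without that library. The change was -0.34 ± 2.03 between month 2 and day 1 (adjusted p = 0.972) and 0.71 ± 1.91 between month 6 and day 1 (adjusted p = 0.911). In the uterus OXT did not pass the filter on low counts. With no filter its log2 fold changes were 1.00 ± 1.47 between month 2 and day 1 (edgeR, adjusted p = 0.83), 0.72 ± 1.45 between months 4 and 2 (adjusted p = 1), -1.54 ± 1.48 between months 6 and 4 (adjusted p = 0.714) and 0.19 ± 1.47 between month 6 and day 1 (adjusted p = 1), and none was called.

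Between organs OXT was called at month 4 alone, higher in the ovary, with a log2 fold change of 11.12 ± 1.95 (edgeR, adjusted p = 0.000304). That call rests on 1 animal: without ovary month 4 individual 5 the value was 3.38 (adjusted p = 0.0927), and over all 20 alternatives it lay between 3.08 and 12.61, with adjusted p from 7.93e-05 to 0.262. With individual numbers as a block it was 4.58 (adjusted p = 0.161). At day 1 it was 2.06 ± 1.90 (adjusted p = 0.525), at month 2 0.72 ± 1.77 (adjusted p = 0.823) and at month 6 2.51 ± 1.79 (adjusted p = 0.448). The difference between organs in the change from day 1 to month 6 was 0.46 ± 2.83 (ovary minus uterus, adjusted p = 0.997). DESeq2 gave OXT neither an unadjusted nor an adjusted p in any comparison.

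Of the genes that mature, store and clear the hormone, some were abundant in both organs and others near 0 in the uterus. PCSK1, a convertase that cuts prohormones, was higher in the ovary than in the uterus at all 4 ages, with log2 fold changes of 8.29 ± 1.48 at day 1, 8.03 ± 1.41 at month 2, 7.07 ± 1.36 at month 4 and 4.82 ± 1.21 at month 6 (edgeR, adjusted p from 0.000139 to 0.00666). Its median was 12.6 CPM over the 20 ovaries and 0.0748 CPM over the 20 uteri. The month 6 value was 7.91 without uterus month 6 individual 2, the uterus with the most PCSK1 at 1.29 CPM. PAM, the enzyme that adds the amide at the end of oxytocin, was higher in the ovary at day 1 (442 against 213 CPM, 1.07 ± 0.30, adjusted p = 0.0104), month 2 (394 against 154 CPM, 1.34 ± 0.30, adjusted p = 0.00173) and month 6 (322 against 153 CPM, 1.06 ± 0.30, adjusted p = 0.0169). PAM was called with 8 of 10 libraries left out in turn at day 1 and at month 6, and with 10 of 10 at month 2. CPE, a carboxypeptidase that trims prohormones, was higher in the ovary at month 2 (204 against 82.5 CPM, 1.3 ± 0.44, adjusted p = 0.0339) and was called with 3 of 10 libraries left out in turn. PCSK2, another convertase, was called at month 2 (0.235 against 0.00859 CPM, adjusted p = 0.0349) and month 6 (0.133 CPM against 0 in every uterus, adjusted p = 0.0266), from few counts. Of the 7 processing genes tested, 2 were called higher in the ovary at day 1, 4 at month 2, 1 at month 4 and 3 at month 6, where 10.3%, 9.79%, 6.92% and 6.05% of all genes were called higher, and 0 lower at each age. In the OXT-rich ovary PCSK1 was at 37.6 CPM and PAM at 358 CPM, inside the range of the other ovaries, of which the highest had 40.4 and 564 CPM.

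LNPEP, the membrane aminopeptidase that breaks oxytocin down and is also called oxytocinase, lay between 210 and 388 CPM in the ovary and between 235 and 362 CPM in the uterus. None of the 4 breakdown and release genes was called at any age between organs. Of all genes 14.2%, 16.3%, 11.1% and 10.1% were called at day 1 and months 2, 4 and 6, so few calls would fall among 4 genes. The granule protein CHGA was higher in the ovary at day 1 (28.1 against 3.84 CPM, log2 fold change 2.88 ± 0.87, edgeR adjusted p = 0.0173) and month 2 (59.1 against 5.57 CPM, 3.40 ± 0.89, adjusted p = 0.00596). Its day 1 call was lost without ovary day 1 individual 4 (2.10, adjusted p = 0.0922), with the block (2.52, adjusted p = 0.148), with limma-voom (adjusted p = 0.0978) and with only the groups compared (adjusted p = 0.0573). SCG3, another granin, was higher in the ovary at day 1 (5.58 against 0.615 CPM, 3.19 ± 0.79, adjusted p = 0.0041), with 13.5 CPM in day 1 individual 3. SCG2 was higher at month 4 (4.08 against 0.476 CPM, 3.05 ± 1.00, adjusted p = 0.0373), and without the OXT-rich ovary its change was 1.56 (adjusted p = 0.281). The medians of PCSK2 and VGF were 0 CPM over the 20 uteri and that of CHGB 0.0361 CPM.

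Of 24 genes that OXTR signals through, 1 was called between organs at each age, where 14.2%, 16.3%, 11.1% and 10.1% of all genes were called at day 1 and months 2, 4 and 6. ITPR2, a calcium release channel, was higher in the ovary at day 1 (257 against 104 CPM, 1.32 ± 0.32, edgeR adjusted p = 0.00285), and its fold change missed the threshold without ovary day 1 individual 4 (0.97, adjusted p = 0.0235). GNAI1, an inhibitory G protein subunit, was lower in the ovary at months 2 (-1.09 ± 0.19, adjusted p = 0.00014) and 6 (-1.21 ± 0.19, adjusted p = 7.05e-05), and CACNA1C, a calcium channel of muscle, at month 4 (-1.46 ± 0.34, adjusted p = 0.0042). The medians of the list were -0.04, -0.20, -0.20 and -0.13 at day 1 and months 2, 4 and 6, beside 0.07, -0.0071, -0.0062 and -0.0027 over all genes.

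Among the genes that shut the receptor off, ARRB1, an arrestin, was lower in the ovary at day 1 (21.7 against 58.6 CPM, -1.43 ± 0.41, edgeR adjusted p = 0.0123) and month 2 (13.6 against 36.4 CPM, -1.43 ± 0.41, adjusted p = 0.0119). At month 6 RGS2, a brake on Gq signalling, was lower (68.2 against 191 CPM, -1.50 ± 0.51, adjusted p = 0.0477), a call kept with 2 of 10 libraries left out in turn. GRK3, a receptor kinase, was higher at month 6 (82.4 against 38.0 CPM, 1.10 ± 0.31, adjusted p = 0.0162), and had 0.67 without ovary month 6 individual 2 (adjusted p = 0.143). These make 1, 1, 0 and 2 of 9 genes at day 1 and months 2, 4 and 6, beside the shares of all genes given for the signalling list.

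ESR1, the estrogen receptor that raises OXTR in the uterus of ruminants, was lower in the ovary at all 4 ages, by -2.75 ± 0.63, -4.13 ± 0.67, -3.15 ± 0.64 and -3.10 ± 0.64 in the order of age (adjusted p from 5.67e-05 to 0.00194). PGR, the progesterone receptor, was lower in the ovary at month 2 (101 against 363 CPM, -1.85 ± 0.46, adjusted p = 0.00387) and month 4 (133 against 472 CPM, -1.87 ± 0.46, adjusted p = 0.00568). GREB1, an estrogen-induced gene, was higher in the ovary at day 1 (318 against 10.6 CPM, 4.91 ± 0.90, adjusted p = 0.000216) and month 2 (397 against 24.7 CPM, 4.00 ± 0.86, adjusted p = 0.00116). PGRMC1, a membrane partner of progesterone signalling, was higher at month 4 (397 against 142 CPM, 1.43 ± 0.21, adjusted p = 4.27e-05). IL1B, an inflammatory cytokine, was lower at day 1 (0.605 against 2.49 CPM, -2.02 ± 0.48, adjusted p = 0.00292) and month 2 (0.856 against 2.11 CPM, -1.31 ± 0.47, adjusted p = 0.0452). CEBPB, a transcription factor, was lower at month 2 (6.48 against 13.5 CPM, -1.07 ± 0.37, adjusted p = 0.039) and month 6 (10.1 against 25.9 CPM, -1.38 ± 0.38, adjusted p = 0.0129). The month 2 calls of IL1B and CEBPB were each kept with 2 of 10 libraries left out in turn, and without uterus month 6 individual 2 the month 6 change of CEBPB was -0.81 (adjusted p = 0.152). Of the 16 regulators, 1, 1, 1 and 0 were called higher in the ovary and 2, 4, 2 and 2 lower, at day 1 and months 2, 4 and 6, where 10.3%, 9.79%, 6.92% and 6.05% of all genes were called higher and 3.94%, 6.5%, 4.22% and 4.06% lower.

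In the prostaglandin arm, AKR1B1, which can make prostaglandin F2 alpha, was higher in the ovary at day 1 (134 against 23.1 CPM, 2.55 ± 0.41, edgeR adjusted p = 4.69e-05), month 2 (120 against 25.3 CPM, 2.24 ± 0.40, adjusted p = 0.000176) and month 4 (69.3 against 23.5 CPM, 1.51 ± 0.39, adjusted p = 0.0088). PLA2G4A, the phospholipase that frees arachidonic acid, was lower in the ovary at month 2 (23.3 against 69.5 CPM, -1.58 ± 0.40, adjusted p = 0.00428), month 4 (28.4 against 60.6 CPM, -1.15 ± 0.39, adjusted p = 0.0452) and month 6 (23.6 against 121 CPM, -2.37 ± 0.41, adjusted p = 0.000174). The AKR1B1 calls and the PLA2G4A calls of months 2 and 6 were kept under each of 21 alternatives, and the PLA2G4A call of month 4 under 4.

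At month 6 PTGS2, the inducible cyclooxygenase, was lower in the ovary (5.94 against 344 CPM, -5.88 ± 1.08, edgeR adjusted p = 0.000368), and without uterus month 6 individual 2 the change was -2.21 (adjusted p = 0.0284). With the block it was -2.47 (adjusted p = 0.098), with limma-voom -2.82 (adjusted p = 0.101) and with only the groups compared -5.85 (adjusted p = 0.0684), none of them called. HPGD, which inactivates prostaglandins, was lower in the ovary at month 6 (4.51 against 70.2 CPM, -3.98 ± 0.75, adjusted p = 0.000461) and was called under each of 21 alternatives. PTGER3, a receptor for prostaglandin E2, was lower at months 2 (-2.38 ± 0.85, adjusted p = 0.0431) and 6 (-2.62 ± 0.85, adjusted p = 0.0398), each called under 12 of 21.

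PTGER2, another receptor for prostaglandin E2, was higher in the ovary at day 1 (19.4 against 2.64 CPM, 2.89 ± 0.86, edgeR adjusted p = 0.0162), with limma-voom the only 1 of 21 alternatives without the call (adjusted p = 0.0783). ABCC4, a prostaglandin exporter, was higher at day 1 (1.59 ± 0.36, adjusted p = 0.00185) under each alternative, and at month 2 (1.04 ± 0.36, adjusted p = 0.0352) under 14 of 21. PTGES, a prostaglandin E synthase, was higher at month 2 (10.9 against 2.17 CPM, 2.32 ± 0.76, adjusted p = 0.0275) under 16 of 21. PTGS1, the constitutive cyclooxygenase, was lower at month 4 (9.18 against 24.5 CPM, -1.45 ± 0.50, adjusted p = 0.0469) under 5 of 21, and had -0.79 without uterus month 4 individual 5 (adjusted p = 0.265). PTGFR was higher at month 4 (4.05 ± 1.00, adjusted p = 0.0064), and -0.21 without the OXT-rich ovary (adjusted p = 0.863). Of the 14 prostaglandin genes, 3, 3, 2 and 0 were called higher in the ovary and 0, 2, 2 and 4 lower, at day 1 and months 2, 4 and 6, beside the shares of all genes given for the regulators.

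Most muscle genes were called between organs at month 4. Of the 12 contraction-associated myometrium genes, 0 were called at day 1 in either direction, 3 were lower and 1 higher in the ovary at month 2, 10 were lower and 1 higher at month 4, and 2 were lower and 0 higher at month 6. Of all genes 3.94%, 6.5%, 4.22% and 4.06% were called lower in the ovary at these ages, and 10.3%, 9.79%, 6.92% and 6.05% higher. CNN1, a calponin of smooth muscle, was lower in the ovary at months 2, 4 and 6 by -2.34 ± 0.63, -3.26 ± 0.65 and -2.34 ± 0.63 (edgeR, adjusted p from 0.00109 to 0.0112). DES, the filament desmin, was lower at the same ages by -3.10 ± 0.60, -2.63 ± 0.59 and -2.84 ± 0.59 (adjusted p from 0.000394 to 0.00288), and LMOD1, an actin nucleator of smooth muscle, at months 2 and 4 by -1.71 ± 0.44 and -2.25 ± 0.45 (adjusted p = 0.00569 and 0.00116). At month 4 ACTA2, ACTG2, MYH11, MYOCD, SMTN, TAGLN and TPM2, genes of the contractile apparatus and its activator, were lower as well, by -2.53 to -1.58 (adjusted p from 0.00182 to 0.0148). GJA1, the gap junction protein of the contracting uterus, was higher in the ovary at month 2 (1128 against 262 CPM, 2.10 ± 0.47, adjusted p = 0.0018) and month 4 (636 against 226 CPM, 1.44 ± 0.46, adjusted p = 0.0332), the month 4 call with 5 of 10 libraries left out in turn. Uterus month 4 individual 5 had the highest level of 9 of the 12 among uteri, and ovary day 1 individual 3 of 7 of the 12 among ovaries. Without these libraries and ovary month 4 individual 5, the counts lower in the ovary were 3, 4, 8 and 3 at day 1 and months 2, 4 and 6, and those higher 0, 1, 1 and 0, with 18.4%, 18.9%, 11.5% and 12.6% of all genes called in either direction. The shares of that fit were not split by direction, so they are not a like background for the counts lower. Without uterus month 4 individual 5 alone, ACTA2 and ACTG2 were no longer called at month 4 (-1.25 and -1.48, adjusted p = 0.117 and 0.11), and TAGLN had -1.22 (adjusted p = 0.0481). With only the groups compared, the organ calls of ARRB1, ITPR2 and IL1B at day 1, of CACNA1C, PGR, ACTA2, ACTG2, SMTN, TAGLN and TPM2 at month 4 and of PCSK1, CEBPB and GRK3 at month 6 were lost (edgeR, adjusted p from 0.0511 to 0.148).

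Between month 6 and day 1 in the uterus, where OXTR missed the threshold, calls among the other genes of the pathway fell in the prostaglandin arm and among regulators of the receptor. PTGS2 averaged 344 CPM at month 6 against 5.55 CPM at day 1 (5.94 ± 1.36, edgeR, adjusted p = 0.0357). By animal it was at 85.7, 1612, 4.55, 11.6 and 7.13 CPM at month 6, against 4.59, 7, 3.63, 7.16 and 5.38 CPM at day 1. The mean was carried by month 6 individual 2, which also had the highest OXTR of the series. Without that library the log2 fold change of PTGS2 was 2.27 (edgeR, adjusted p = 0.171). The call was also lost without any 1 of the 5 day 1 libraries (5.82 to 6.04, adjusted p from 0.0644 to 0.0893), with limma-voom (2.68, adjusted p = 0.331), with the block (4.05, adjusted p = 0.208), with no filter (5.95, adjusted p = 0.0503) and with only the groups compared (5.93, adjusted p = 0.143).

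PTGER2 was at 20.5, 191, 13.9, 14.3 and 15.3 CPM at month 6, against 0.173, 4.28, 2.51, 4.74 and 1.52 CPM at day 1, and the groups did not overlap (4.26 ± 0.90, edgeR adjusted p = 0.0262). Without month 6 individual 2 its change was 2.58 (adjusted p = 0.084), and the call was also lost without day 1 individuals 3 (4.24, adjusted p = 0.0686) or 5 (4.12, adjusted p = 0.0522), with limma-voom (3.87, adjusted p = 0.0569) and with only the groups compared (4.25, adjusted p = 0.111). PTGES was lower at month 6 (1.52 against 9.52 CPM, -2.67 ± 0.66, adjusted p = 0.0487), with day 1 individuals 3 and 5 at 22.9 and 11.8 CPM, and was called with 2 of 10 libraries left out in turn. It was not called with limma-voom, the block, no filter or only the groups compared (adjusted p from 0.0586 to 0.151). In all, 2 of 14 prostaglandin genes were called higher and 1 lower, where 0.66% of all genes were called higher and 0.756% lower, with a median log2 fold change of 0.62 beside 0.01 over all genes.

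Of 15 regulators tested, 1 was called lower and 0 higher, beside the same shares of all genes. That gene was IL1B, at 0.674 CPM at month 6 against 2.49 CPM at day 1 (log2 fold change -1.89 ± 0.46, edgeR adjusted p = 0.0465), and the call held with 1 of 10 libraries left out. It was lost with limma-voom, the block, no filter and only the groups compared (adjusted p from 0.0645 to 0.127). PGR was at 409 against 151 CPM (1.43 ± 0.40, adjusted p = 0.0798), ESR1 at 923 against 404 CPM (1.18 ± 0.44, adjusted p = 0.173) and GREB1 at 69.4 against 10.6 CPM (2.71 ± 0.70, adjusted p = 0.0546). These 3 did not pass. They did pass, with the same fold changes, when month 4 individual 5 was left out of the shared estimate of spread (adjusted p = 0.0064 for PGR, 0.0306 for ESR1 and 0.0475 for GREB1), a fit that called 2.6% of all genes and gave OXTR an adjusted p = 0.109. For PGR, ESR1 and GREB1 no values are given here with limma-voom, the block, no filter, only the groups compared or other single libraries left out. How their calls hold there is thus not known. The 12 myometrium genes had positive fold changes, by a median of 0.62, and none was called. CNN1 had 0.96 ± 0.51 (adjusted p = 0.338) and LMOD1 0.85 ± 0.28 (adjusted p = 0.126).

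In the uterus none of 24 signalling, 9 shut-off, 5 processing, 4 granule and 4 breakdown genes tested was called between month 6 and day 1. Only 1.42% of all genes were called there. The shut-off genes with the largest changes were ARRB1 at -0.99 ± 0.29 and RGS4, another brake on Gq signalling, at 0.97 ± 0.29 (edgeR, adjusted p = 0.0892 for each). In the granule list CHGA had 2.62 ± 0.83 (adjusted p = 0.109) and SCG2 2.87 ± 0.81 (adjusted p = 0.0798). ITPR1, the calcium release channel with the largest change of the signalling list, had 0.58 ± 0.24 (adjusted p = 0.227).

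In the ovary no gene of these lists was called between months 4 and 2 or between month 6 and day 1, where 0% and 0.0763% of all genes were called. Without day 1 individual 3 and month 4 individual 5, PTGFR was called higher at month 6 than at day 1 (2.19, edgeR adjusted p = 0.0265), the only one of these genes in a fit that called 4.31% of all genes. Values of month 4 followed individual 5 in several. PTGFR had 2073 CPM at month 4 against 80.8 CPM at month 2 (4.68 ± 1.31, edgeR adjusted p = 0.549), with 9931 CPM in that library. IL6, another inflammatory cytokine, had 9.95 CPM at month 4 against 0.16 CPM at month 2 (5.94 ± 1.92, adjusted p = 0.549), and was at 49.6 CPM in that library and at most 0.443 CPM in the other 19. AVPR1A had 8.96 CPM at month 4 against 1.09 CPM at month 2 (3.04 ± 1.44, adjusted p = 0.558). Between month 6 and day 1 the largest change among prostaglandin genes was that of HPGD, at 4.51 against 41.7 CPM (-3.19 ± 0.85, adjusted p = 0.13). HPGD was at 169 CPM in day 1 individual 3, the library with fat genes.

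The genes whose levels ran closest to OXTR differed between organs, with the libraries kept and with age means taken out. Over the 20 uteri the 5 genes with the highest Spearman rho among 18788 were MMP7, a matrix metalloprotease (0.89), TRPS1, a GATA-type repressor (0.87), SSUH2 (0.86), PAPPA, a protease of insulin-like growth factor binding proteins (0.85), and the tRNA gene TRNAK-CUU (0.85). Without day 1 individual 5 and month 4 individual 5 they were PRR16 (0.93), PODN (0.89), FOSL2 (0.89), STAM (0.88) and THBS1 (0.88) over 18 uteri. Among the listed genes in the 20 uteri PTGER2 had 0.78, ITPR1 0.73, PGR 0.70, PTGS2 0.59 and ESR1 0.54, while GJA1 had -0.15. Values of these listed genes are not given here without the libraries that stand apart or with age means taken out. With age means taken out, the genes closest to OXTR in the 20 uteri were UBOX5 (0.85), RBM15 (0.82), MMP7 (0.81), SMG9 (0.81) and SSUH2 (0.80). The points share organ, age and library, and these values describe the 20 libraries only.

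Over the 20 ovaries the genes closest to OXTR among 19670 were GMPR (0.88), RWDD2A (0.85), PDE7A (0.85), KLHDC9 (0.85) and CTBS (0.85). Without month 4 individual 5 they were GMPR (0.86), FBXO4 (0.86), RWDD2A (0.83), PPME1 (0.83) and KLHDC9 (0.83) over 19 ovaries. The egg coat gene ZP2 had 0.77 and the oocyte growth factor GDF9 0.71 over the 20 ovaries. Neither value is given here without the libraries that stand apart or with age means taken out. With age means taken out, the genes closest to OXTR were RELT (0.91), PDE7A (0.90), SLC28A1 (0.89), SOX3 (0.89) and BRINP2 (0.88). For OXT in the ovary the nearest genes were GPR171 (0.75), CALD1 (0.69), C16H1orf27 (0.68), CXCL11 (0.67) and MYOC (0.66), and without month 4 individual 5 GPR171 (0.74), CALD1 (0.66), MYOC (0.66), MPZL1 (0.65) and SLAMF1 (0.64). Once age means were taken out they were all others: CCDC50 (0.78), ASZ1 (0.77), FAM214B (0.75), ADAMTS14 (0.74) and NRIP2 (0.74). With 18 of 20 ovaries at or below 35 OXT counts these ranks rest on few counts. STAR, the luteal gene so high beside OXT in 1 ovary, had -0.03 with OXT over the 20 ovaries.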

How the data were processed

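The deposited table holds whole-number counts per gene, made by the authors with no normalization in the values. The submitters' processing notes name RSEM 1.3.0, StringTie 1.3.3b, HISAT2 and fastp 0.23.1. Not given in the sources used here were what each did, the genome build, the strand setting and how reads shared by genes were counted. Per the labels' protocols TRIzol was used to extract total RNA for Illumina libraries. Symbols of 28910 numbered genes came from a RefSeq table of assembly ARS1.2, used for names only. Genes written as CYP11A1 and CYP17A1 were matched through synonyms.

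Tests used edgeR 4.0.16 in R 4.3.3 (quasi-likelihood, robust, TMM, filterByExpr, two-sided, Benjamini-Hochberg adjustment over all genes tested). The 20 libraries of an organ were fitted together for ages (19671 genes in the ovary, 18789 in the uterus) and all 40 for contrasts between organs (20518 genes). Organ and age came from the labels. Levels are CPM with TMM scaling, errors are SD or SE as stated, and intervals of single counts are exact Poisson 95% intervals that cover counting error only. Each SE of an edgeR fold change was the size of that log2 fold change over the square root of its F statistic. Such an SE restates the test and is not a separate estimate of error. The limit for a count of 0 is 3 counts. The fit was tried on simulated counts whose spread was capped. That trial does not speak for genes as variable between animals as OXT and OXTR. No 2 libraries of a group agreed within sampling noise (smallest chi-square per degree of freedom 83.5). Totals of 31.9 to 62.7 M counts make 1 CPM many counts, and variation between animals limits all but the lowest levels.

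The 2 genes and the gene lists were chosen with earlier results of these data known. The text names OXT and OXTR in every library, genes of the pathway and muscle lists that were called in a contrast (otherwise up to 4 per list with the largest fold change; marker list genes are not named for their calls), levels of list genes in libraries that stand apart, and the 5 genes with a symbol other than a LOC number that had the highest Spearman rho over log2 CPM (prior count 2). Alternatives were DESeq2 1.42.0, limma-voom without sample weights (limma 3.58.1), RLE scaling, no filter, only the groups compared, a replicate block, and libraries left out singly or together. In fits of both organs the block joined ovary and uterus of the same age and number. In fits of a single organ it joined the same number across ages, which the labels do not say is the same goat. Deviations of such libraries had mean correlations from -0.11 to 0.16, so calls lost there with the block say little. No sequences are shown because no sequence table was given here.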

Additional observations from a re-analysis of the deposited data

Results flagged for a closer look

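In groups of 5 libraries, 5 values lay farther from the nearest other library than Dixon's 95% criterion allows (a gap of 0.71 of the range). All 8 groups were screened for each of the 2 genes. For normally spread values this happens by chance in about 1 group in 20. The criterion was applied to CPM without a log, so the rate for these values is not known. OXT in ovary month 4 individual 5 was at 1786 CPM, with the next library of the group at 5.73 CPM. OXTR in ovary month 6 individual 1 was at 8.17 CPM, with the next at 0.921 CPM. OXTR in ovary month 2 individual 5 was at 0.954 CPM, below the next at 2.48 CPM. In the uterus OXT was at 0.573 CPM in month 4 individual 3, from 24 counts, with the next at 0.121 CPM, and at 0.172 CPM in day 1 individual 4, from 10 counts, with the next at 0.049 CPM. The last 2 values rest on few counts. What set these libraries apart was not tested.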

How the results depend on the processing

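Of the 441 values computed under alternatives, 419 kept their direction and their side of the threshold. Most belong to results not called in the main fit, and some single removals are counted more than once. Among called results, OXTR between organs kept its call under 11 of 21 alternatives at day 1 and 20 of 21 at month 4. OXT between organs at month 4 kept it under 14 of 20. The OXTR differences between organs at months 2 and 6 were called under all 21 alternatives each. At day 1 OXTR (ovary over uterus) had -2.21 with limma-voom (adjusted p = 0.538), -3.43 with only the groups compared (0.177) and -3.12 without ovary day 1 individual 3 (0.0613), none of them called. With 1 library left out in turn it ran from -3.77 to -2.28 and was called 4 times in 10. At month 4 limma-voom gave -6.60 (0.092). OXT at month 4 (ovary over uterus) was not called with limma-voom (4.53, 0.262), with only the groups compared (11.20, 0.0911), without ovary month 4 individual 5 (3.38, 0.0927) or without that library, ovary day 1 individual 3 and uterus month 4 individual 5 (3.08, 0.142). It ran from 3.38 to 12.61 with 1 library left out in turn. The sign turned in results that were not called: OXT between month 2 and day 1 in the ovary (-0.91 to 0.0888 with 1 library left out), OXT in the organ difference of change (-1.13 to 1.13), OXTR between months 6 and 4 in the ovary (-1.04 to 1.09), and with limma-voom OXTR between month 2 and day 1 in the ovary (0.0283) and between months 4 and 2 in the uterus (-0.20). Apart from values with libraries left out, whose removal is the change, the cause was not tested.

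Individual numbers were not taken to pair the organs in the main fits. Deviations of same-numbered ovary and uterus of an age had correlations from -0.16 to 0.31 (median 0.08), over 0.1 in 9 of 20, and 9 of 20 were best with their own number. Each ovary had 5 uteri of its age to be best with. Whether the numbers pair the organs is not stated in the labels, and these values do not settle it. With the number as a replicate block the organ difference of OXTR at day 1 was -3.32 (adjusted p = 0.0748) and that of OXT at month 4 was 4.58 (adjusted p = 0.161), and the other 20 results kept their side. The removal of uterus day 1 individual 5 and uterus month 4 individual 5 together was chosen after seeing the data. Depth limits OXT: outside 2 ovaries no library had over 35 counts. In DESeq2 both the unadjusted and the adjusted p of OXT were missing in 9 comparisons, though a fold change was given. Those comparisons are left out here, and why the p-values were missing was not tested.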
